A study of Mus musculus with 6 samples.

Results

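Vegfa, Vegfb, Vegfc and Fgf2 encode secreted growth factors that act on blood or lymph vessels, and their transcripts were followed in mouse osteoblast-like cells given parathyroid hormone. The 4 genes were taken by symbol from the deposited table of transcript abundances, and every transcript listed under a symbol was kept. They make up 4 of 13659 gene symbols and 18 of 37478 transcripts, with 10 transcripts of Vegfa, 3 of Vegfb, 1 of Vegfc and 4 of Fgf2.

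The libraries came from MC3T3-E1 cells (subclone 4), a line established from mouse calvaria, so all values describe 1 subclone grown in serum-containing medium. PTH(1-34), a hormone fragment that acts through the PTH receptor, was given to 3 samples and vehicle to 3 others, numbered 1 to 3 in both groups. One label field gives 30 min of treatment and another gives 2 h, which leaves the time uncertain, and no dose is stated in the labels. Whether the samples of a group were separate cultures is not stated either, so the spread behind each p-value may be purely technical. Values are FPKM, a fragment count corrected for transcript length and library size, and a gene's level is the sum over its listed transcripts. The number of reads behind a value is unknown, so no counting interval is given.

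The FPKM totals ranged from 618221 to 814132 in the PTH libraries and from 677256 to 853916 in the vehicle libraries. Of 9 osteoblast lineage markers, 8 were in the table and all 8 passed the minimum of 1 FPKM for testing, with a summed level of 875 to 973 FPKM in PTH libraries and 880 to 960 FPKM in vehicle libraries. After PTH, 2 of these 8 were higher and 2 lower, where 10.8% of all 11628 genes tested were called higher and 41.0% lower. With the library number as a block 2 were higher and 4 lower, where the block called 13.8% of all genes higher and 50.0% lower. Of 9 endothelial markers, Vwf and Egfl7 were in the table, with a summed level of 0.947 to 1.62 FPKM in PTH libraries and 0.819 to 1.28 FPKM in vehicle libraries. Of 7 haematopoietic markers, 4 were in the table, with summed levels of 10.1 to 16.0 FPKM in PTH libraries and 9.23 to 16.1 FPKM in vehicle libraries. Neither of the 2 that were tested was called by limma, and 0 had an unadjusted p under 0.05, while 1 was called higher with the block. The part of other cell types in the results was not tested. In bulk RNA, a change in the share of cells that express a gene cannot be told apart from a change in RNA per cell.

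VEGF-A is secreted as a dimer and acts through the receptor tyrosine kinases VEGFR1 (Flt1) and VEGFR2 (Kdr), with the neuropilins Nrp1 and Nrp2 as coreceptors. VEGF-B binds VEGFR1 and neuropilin 1, VEGF-C acts mainly through VEGFR3 (Flt4) on lymphatic vessels, and FGF2 binds FGF receptors together with heparan sulfate. In bone, VEGF-A made by osteoblasts and hypertrophic chondrocytes is known to guide vessel ingrowth, and FGF2 is known as a mitogen of osteoblast precursors. The Vegfa gene is spliced differently between exon 5 and its last exon. Exons 6 and 7 encode the stretches that bind heparan sulfate, so the products differ in how far they spread from the cell that makes them.

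In mm10, Vegfa (ENSMUSG00000023951) lies on the minus strand at chr17:46016993-46032369 and Vegfb (ENSMUSG00000024962) on the minus strand at chr19:6982473-6987651. Vegfc (ENSMUSG00000031520) lies on the plus strand at chr8:54077606-54187096 and Fgf2 (ENSMUSG00000037225) on the plus strand at chr3:37348346-37410108. These spans are those of GENCODE M21 on the same assembly. The coding joins that set the VEGF-A isoforms apart are printed here, each with the last 30 bases of the exon before the join in lower case and the first 22 bases of the exon after it in capitals. In Vegfa-202, the VEGF164 type, exon 5 (chr17:46024065-46024094) is joined to exon 7 (chr17:46020991-46021122). In Vegfa-201, the VEGF120 type, exon 5 is joined to the last exon, whose coding part ends with the stop codon that closes the sequence. In Vegfa-207, the VEGF188 type, exon 5 is joined to exon 6 (chr17:46022277-46022348), and in Vegfa-203, the VEGF144 type, exon 6 is joined to the last exon.
Vegfa-202: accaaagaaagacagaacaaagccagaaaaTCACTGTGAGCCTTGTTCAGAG
Vegfa-201: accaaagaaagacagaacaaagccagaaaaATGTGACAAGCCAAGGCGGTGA
Vegfa-207: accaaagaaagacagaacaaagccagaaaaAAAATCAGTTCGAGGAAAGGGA
Vegfa-203: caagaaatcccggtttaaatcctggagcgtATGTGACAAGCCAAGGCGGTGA
The first 3 share every base before the join, since all leave from the end of exon 5. Vegfa-201 and Vegfa-203 share the 22 bases after it. The annotated coding sequence of Vegfa-201 gives 146 residues and that of Vegfa-203 gives 170. Vegfa-202 gives 190 residues when read from the same AUG and 368 from the upstream CUG codon at which its annotated frame begins, and Vegfa-207 gives 214 from that AUG. Vegfb has an equivalent choice, in which exon 5 (chr19:6985805-6985840) is joined to an earlier or a later acceptor of the next exon.
Vegfb-201: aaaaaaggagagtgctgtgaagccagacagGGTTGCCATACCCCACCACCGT
Vegfb-202: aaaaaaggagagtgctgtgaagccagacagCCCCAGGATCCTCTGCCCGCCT
Vegfb-201 encodes 207 residues, the VEGF-B186 type, and Vegfb-202 encodes 188, the VEGF-B167 type that keeps the heparin-binding tail. The capitals therefore mark where the diffusible and the heparin-binding forms part.

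Vegfa, the main endothelial growth factor of the family, rose 12.4-fold after PTH. It stood at 272.6, 277.9 and 222.2 FPKM in PTH libraries 1 to 3, against 22.4, 20.0 and 19.9 FPKM in vehicle libraries 1 to 3. Every PTH library was far above every vehicle library. The means were 257.6 ± 30.7 FPKM with PTH and 20.8 ± 1.43 FPKM with vehicle (SD, n = 3 each). On the log2(FPKM + 0.5) scale the change was 3.60 (SE 0.10, limma adjusted p = 1.6e-06), rank 31 from the largest rise down among 11628 tested genes. The exact permutation test over the libraries gave p = 0.1, two-sided, the smallest that 3 against 3 libraries allow. With Vegfb and Fgf2 tested as well, 1 of 3 tested members rose and 0 fell by limma at an adjusted p of 0.05, and no other member had an unadjusted p under 0.05. Over all genes tested, 10.8% were called higher and 41.0% lower, and the median log2 change was -0.15. When each library was centred on its median, 2131 genes were called higher and 2792 lower, against 1252 higher and 4765 lower as deposited, and the Vegfa change was 3.72.

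**Figure D1:**
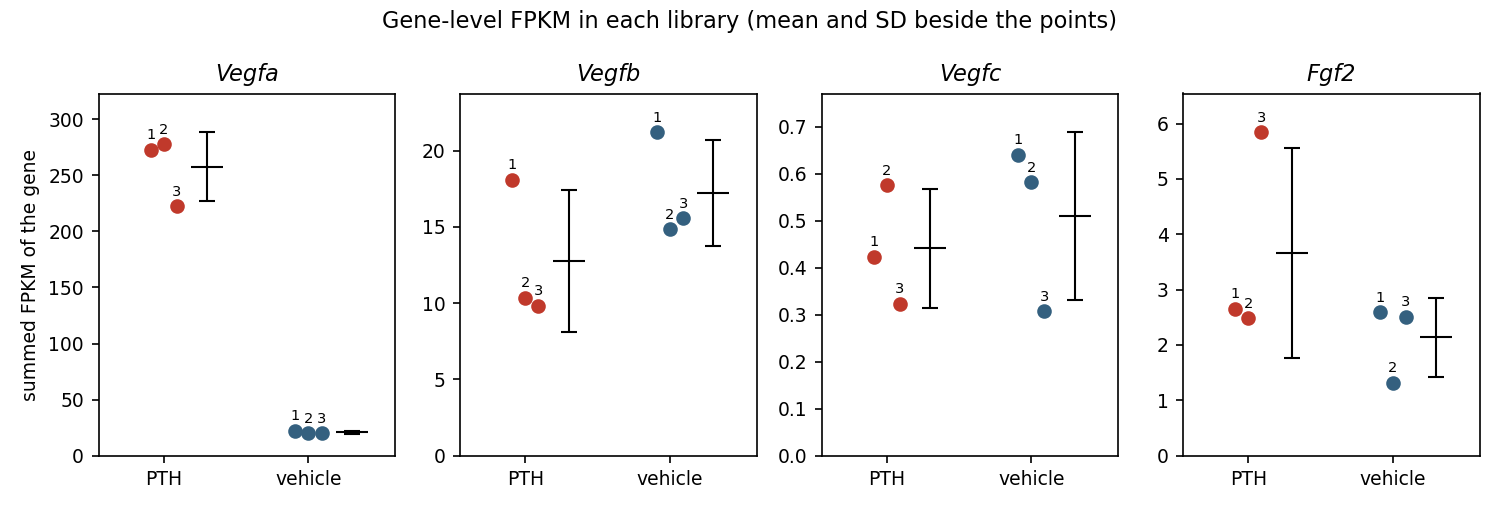
Gene-level FPKM of the 4 genes in each of 3 PTH and 3 vehicle libraries, numbered as in the labels, on axes that start at 0, with the mean and SD beside the points. The Vegfa groups are far apart, at 222.2 to 277.9 against 19.9 to 22.4 FPKM, while the points of Vegfb, Vegfc and Fgf2 overlap between groups.

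The rise put Vegfa in another part of the expression range. Its mean PTH level was at or above that of 98.3% of the symbols in the table, and its mean vehicle level at or above that of 72.8%. With PTH the order of mean levels was Vegfa, then Vegfb at 12.8 FPKM, Fgf2 at 3.66 FPKM and Vegfc at 0.441 FPKM. In vehicle the order was the same, with Vegfb at 17.2, Fgf2 at 2.14 and Vegfc at 0.510 FPKM, but the library ranges of Vegfa and Vegfb overlapped there. The ratio of Vegfa to Vegfb within a library was 15.1, 26.9 and 22.6 in PTH libraries 1 to 3, against 1.06, 1.35 and 1.28 in vehicle libraries 1 to 3. Ratios within a library do not depend on how libraries are scaled, and these did not overlap (exact permutation p = 0.1, the smallest possible). They were chosen after the values were seen.

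Of the 10 Vegfa transcripts, 9 passed the minimum of 1 FPKM averaged over all libraries. Of these, 4 (Vegfa-207, Vegfa-208, Vegfa-209 and Vegfa-211) averaged under 1 FPKM in vehicle and passed through the PTH libraries alone, so that a count over the 9 carries no weight. The 5 that averaged at least 1 FPKM in both groups (Vegfa-201, Vegfa-202, Vegfa-203, Vegfa-205 and Vegfa-210) were all called higher by limma on transcripts, where 8.13% of all 21983 transcripts tested were called higher and 22.2% lower. Vegfa-202, the VEGF164 type, had the largest mean PTH level. It had 110.3, 108.5 and 92.1 FPKM in PTH libraries 1 to 3, against 4.30, 5.48 and 4.64 FPKM in vehicle libraries 1 to 3. The libraries did not overlap, and the log2 change was 4.30 (SE 0.11, limma adjusted p = 4.8e-06). Vegfa-201, the diffusible VEGF120 type, had 46.6, 51.1 and 43.7 FPKM in PTH libraries, against 5.53, 5.64 and 5.80 FPKM in vehicle libraries. Its log2 change was 2.95 (SE 0.07). Vegfa-202 was thus above Vegfa-201 in all 3 PTH libraries and below it in all 3 vehicle libraries. Vegfa-203, the VEGF144 type, had 28.7, 33.0 and 25.0 FPKM in PTH libraries, against 3.36, 0.883 and 1.85 FPKM in vehicle libraries. Its vehicle values spread more widely than those of the other abundant forms, and its log2 change was 3.65 (SE 0.35).

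The longest form, Vegfa-207 (VEGF188 type), was seen with PTH alone, at 3.30, 1.81 and 2.89 FPKM, and was listed at or next to 0 in the 3 vehicle libraries. It passed the minimum through the PTH libraries alone, and the size of its difference depends on the added constant, so no fold is given. Vegfa-211, which carries the same join as Vegfa-201 behind a CUG start, had 4.58, 2.74 and 0.0414 FPKM in PTH libraries, against 0.530, 0.00044 and 0.00018 FPKM in vehicle libraries. PTH library 3 fell within the vehicle range, and the log2 difference of 1.70 (SE 0.84) did not pass (limma adjusted p = 0.177). Without PTH library 3 it was 2.67 and passed (limma adjusted p = 0.0130). The 5 transcripts annotated with a retained intron make no annotated protein. Of these, Vegfa-210 was the most abundant, with 50.2, 45.3 and 35.6 FPKM in PTH libraries, against 4.04, 4.09 and 4.15 FPKM in vehicle libraries. Its log2 change was 3.25 (SE 0.12). Vegfa-205 had a log2 change of 2.27, Vegfa-208 of 3.10 and Vegfa-209 of 2.37, all past the threshold, of which Vegfa-208 and Vegfa-209 averaged 0.391 and 0.805 FPKM in vehicle, and Vegfa-206 stayed below 1 FPKM on average and was not tested. Non-overlapping libraries were found for 8 of the 10 transcripts, all with PTH above vehicle. Of these, Vegfa-207, Vegfa-208 and Vegfa-209 passed the minimum through the PTH libraries alone, so this count carries no weight. Over all transcripts tested, 12.2% had every PTH library above every vehicle library.

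**Figure D2:**
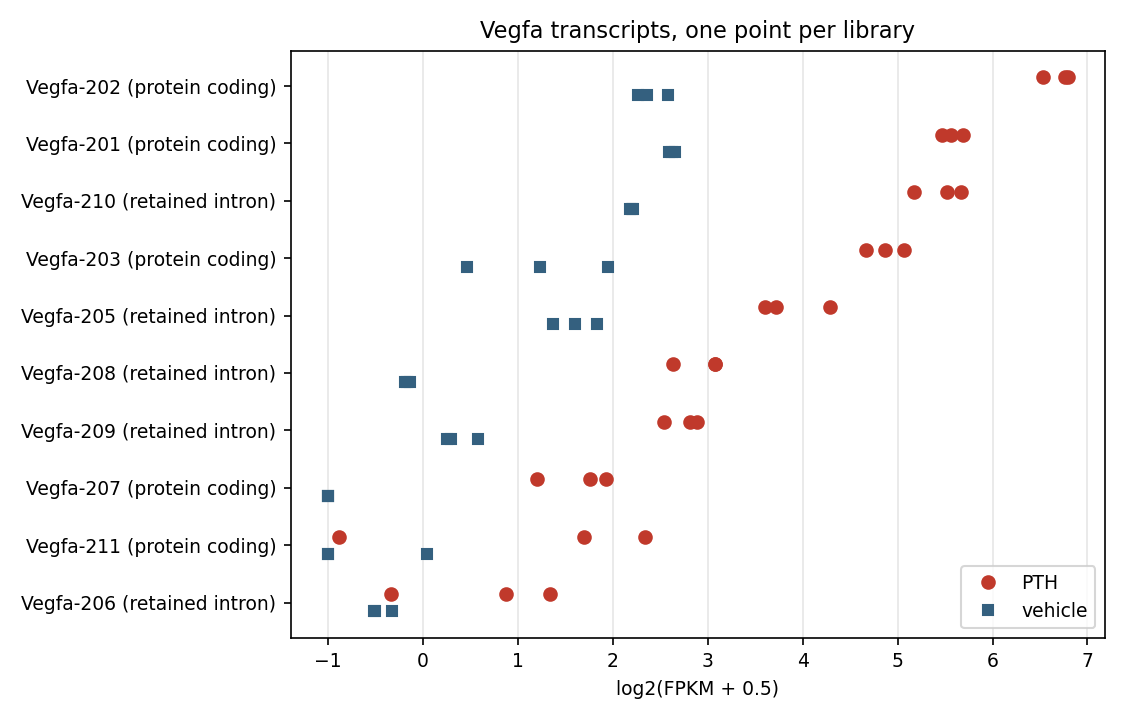
Each Vegfa transcript in each library as log2(FPKM + 0.5), with PTH libraries as circles above vehicle libraries as squares, ordered by mean PTH level. Groups are apart for 8 transcripts and overlap for Vegfa-211 and Vegfa-206, and Vegfa-202 is the highest PTH row although Vegfa-201 is the highest in vehicle.

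The share of Vegfa-202 in Vegfa RNA was higher in every PTH library than in any vehicle library. It took 40.5%, 39.0% and 41.4% of the summed Vegfa FPKM in PTH libraries 1 to 3, against 19.2%, 27.4% and 23.4% in vehicle libraries 1 to 3. The mean shares were 40.3 ± 1.20% with PTH and 23.3 ± 4.10% with vehicle (SD, n = 3 each), and the shares did not overlap (exact permutation p = 0.1, the smallest possible). Vegfa-201 took 18.4 ± 1.28% with PTH and 27.4 ± 2.37% with vehicle, again without overlap. The ratio of Vegfa-202 to Vegfa-201 was 2.37, 2.12 and 2.11 in PTH libraries and 0.777, 0.971 and 0.801 in vehicle libraries. The 2 models differ in their start and in exon 7, and both end at chr17:46016993. Vegfa-202 starts at chr17:46032369 with exon 7 in place and Vegfa-201 starts at chr17:46031815 without it. The shares therefore do not say which of the differences the reads followed.

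Tested across all symbols with limma's diffSplice, which compares each transcript's log2 change with that of the other transcripts of its gene, Vegfa had an adjusted p of 0.0489. Among 4818 symbols, 10.0% were called. Vegfa-202 rose by 1.56 more than the other Vegfa transcripts on the log2 scale (limma adjusted p = 0.0199) and the difference of Vegfa-211 from the others was -1.36 (limma adjusted p = 0.0457), where 5.16% of 15437 transcripts were called. Of the 9 transcripts compared, Vegfa-207, Vegfa-208, Vegfa-209 and Vegfa-211 passed the minimum through the PTH libraries alone. Their changes depend on the added constant, and that of Vegfa-207 was 2.63 with 0.5 and 4.75 with 0.1. Both differences rest in part on these transcripts, and the call of Vegfa-211, itself among them, carries no weight. The call of Vegfa-202 was lost with an added constant of 0.1 (1.04, limma adjusted p = 0.50), with TPM (0.116), without both libraries numbered 1 (0.137), and without PTH library 2 (0.0704) or vehicle library 1 (0.120) or 3 (0.0980). The call of Vegfa-211 was lost under 11 alternatives, at -0.48 without PTH library 3 (limma adjusted p = 0.514) and -1.07 without vehicle library 1 (0.260), and as a log2 ratio to the other transcripts (0.265). This test assumes one spread for all transcripts of a gene, and the call for Vegfa was lost under several settings. It was lost without PTH library 2 (adjusted p = 0.104) and without vehicle library 1 (0.271), 2 (0.110) or 3 (0.169). With an added constant of 0.1 the adjusted p was 0.600, and with 1 it was 0.00086. The share of Vegfa-202 was 14.9 to 19.0 percentage points higher with PTH when each library was left out in turn.

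Grouped by the join after exon 5, transcripts with exon 7 and without exon 6 took 48.4 ± 0.69% of the RNA that covers this stretch with PTH and 37.8 ± 3.98% with vehicle (SD, n = 3 each). Transcripts with neither exon took 38.2 ± 1.01% with PTH and 50.8 ± 2.59% with vehicle. Neither pair of groups overlapped (exact permutation p = 0.1 each). Transcripts with exon 6 and without exon 7 took 11.8 ± 0.69% with PTH and 10.2 ± 5.65% with vehicle, and those with both took 1.59 ± 0.18% with PTH and 1.21 ± 0.32% with vehicle. The groups overlapped for both of these classes. Apart from the class with exon 6 alone, these classes count retained-intron transcripts as well. Among protein-coding transcripts alone, those with both exons (Vegfa-207) took 1.46 ± 0.47% with PTH and next to 0 with vehicle. Those with exon 7 alone took 56.1 ± 0.99% with PTH and 38.3 ± 7.17% with vehicle. Those with neither took 26.8 ± 0.44% with PTH and 46.1 ± 1.68% with vehicle. Those with exon 6 alone took 15.6 ± 0.99% with PTH and 15.6 ± 8.57% with vehicle. Of the summed Vegfa FPKM, transcripts annotated with a retained intron took 29.0%, 29.1% and 26.4% in PTH libraries, against 38.8%, 40.0% and 38.1% in vehicle libraries. The protein-coding share was correspondingly 71.9 ± 1.56% with PTH and 61.0 ± 0.96% with vehicle. Summed over protein-coding transcripts alone, Vegfa stood at 184.8 ± 18.3 FPKM with PTH and 12.7 ± 0.92 FPKM with vehicle. These groupings were chosen after the values were seen.

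**Figure D3:**
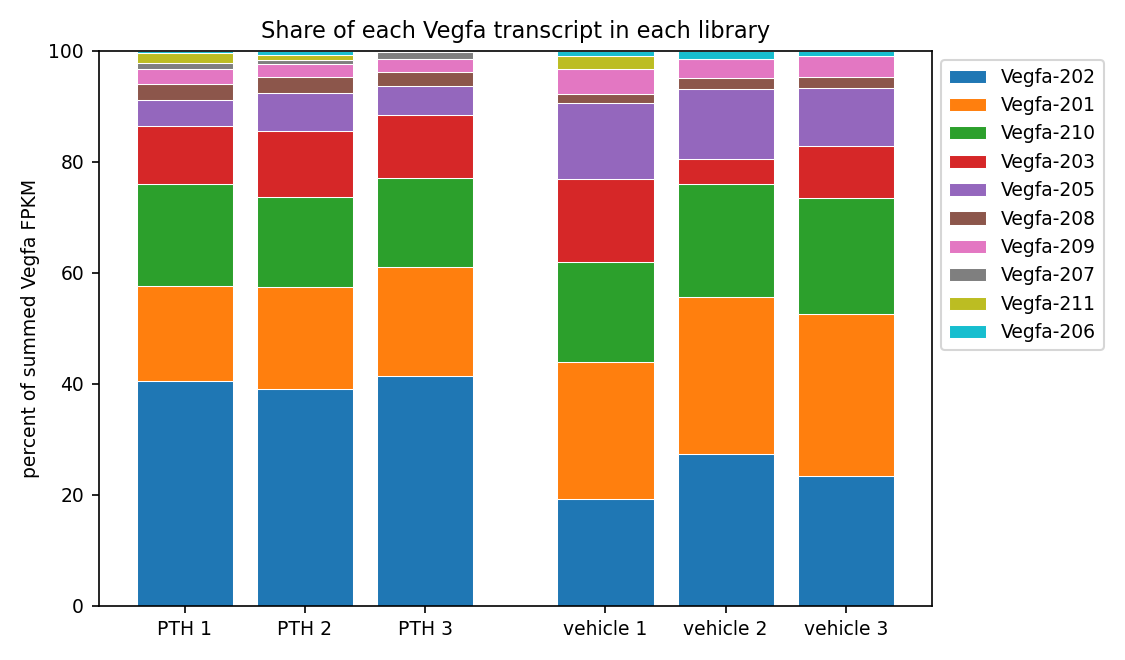
Percent of the summed Vegfa FPKM taken by each of 10 transcripts, stacked to 100% in each library, with the 3 PTH libraries left of the 3 vehicle libraries. Vegfa-202, at the base of the bars, takes 39.0% to 41.4% in PTH libraries and 19.2% to 27.4% in vehicle libraries, and the retained-intron form Vegfa-205 is narrower with PTH (5.58% on average) than with vehicle (12.3%).

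The window of 250 bases before the RefSeq start of the longest Vegfa transcripts (GRCm38.p6, minus strand, chr17:46032378-46032627) is shown with the GC box GGGCGG in capitals, because the rise spread over transcripts that begin there and downstream.
Vegfa promoter: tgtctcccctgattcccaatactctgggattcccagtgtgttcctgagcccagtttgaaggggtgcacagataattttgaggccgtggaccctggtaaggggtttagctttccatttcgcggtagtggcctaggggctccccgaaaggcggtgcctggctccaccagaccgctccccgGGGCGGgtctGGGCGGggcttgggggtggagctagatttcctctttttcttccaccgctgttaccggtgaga
The GC box occurs 2 times, at 72 and 62 bases before the start. On both strands, this window held no match to the cyclic AMP response element TGACGTCA, its core TGACG, the hypoxia response cores ACGTG and GCGTG, or the AP-1 motif TGANTCA. Of 32851 promoter windows of this length, 32.7% held the GC box, 1.55% the full cyclic AMP response element, 17.8% its core, 16.6% ACGTG, 28.2% GCGTG and 6.75% the AP-1 motif. The core lies within the full element, so those counts overlap. The window before a second RefSeq start of Vegfa (chr17:46025164-46025413, minus strand) was searched as well. This second window lies within the Vegfa gene span given above, downstream of the start of Vegfa-202. It held 1 TGACG, 1 ACGTG, 1 GCGTG and 1 GGGCGG, at 209, 211, 218 and 158 bases before that start, with the first 2 overlapping, and no TGACGTCA or TGANTCA. These are matches of letters in these windows only.

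Vegfb, a ligand of VEGFR1, was lower with PTH in each of the 3 same-numbered pairs, but the groups overlapped. It had 18.1, 10.3 and 9.84 FPKM in PTH libraries 1 to 3, against 21.2, 14.8 and 15.5 FPKM in vehicle libraries 1 to 3. Library 1 was the highest in both groups. The means were 12.8 ± 4.63 FPKM with PTH and 17.2 ± 3.48 FPKM with vehicle (SD, n = 3 each), and the log2 difference of -0.45 (SE 0.25) did not pass (limma adjusted p = 0.167). With the library number as a block the same difference passed (SE 0.08, limma adjusted p = 0.00445), and it also passed with the block after median centring, at -0.33 (limma adjusted p = 0.0143). Without PTH library 1 it was -0.72 and passed (limma adjusted p = 0.0130). Of the 6 VEGF family ligand symbols listed, 3 were tested, at a median log2 change of -0.17, and with the block 1 was higher and 2 were lower, Vegfb among them, where the block called 50.0% of all genes lower.

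The proportion of the 2 coding forms of Vegfb did not differ beyond the spread of the libraries. Vegfb-201 had 9.98, 6.04 and 5.65 FPKM in PTH libraries, against 11.2, 8.18 and 9.48 FPKM in vehicle libraries, a log2 difference of -0.42 (SE 0.22, limma adjusted p = 0.202). It passed without PTH library 1 (-0.66, limma adjusted p = 0.0242) and without both libraries numbered 1 (-0.55, limma adjusted p = 0.0334). Vegfb-202 had 7.66, 4.06 and 3.97 FPKM in PTH libraries, against 8.66, 6.04 and 4.93 FPKM in vehicle libraries, a log2 difference of -0.32 (SE 0.29, limma adjusted p = 0.447). The ratio of Vegfb-201 to Vegfb-202 was 1.40 ± 0.09 with PTH and 1.52 ± 0.35 with vehicle (SD, n = 3 each, exact permutation p = 0.9). The diffSplice test gave an adjusted p of 0.899. The retained-intron form Vegfb-203 had 0.457, 0.243 and 0.228 FPKM in PTH libraries, against 1.32, 0.631 and 1.13 FPKM in vehicle libraries. All 3 PTH values lay below all 3 vehicle values, which held for 34.3% of the transcripts tested, but the form was under the minimum level. With no minimum its log2 difference was -0.90 (limma adjusted p = 0.0359).

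Vegfc, the lymphatic member, was at the bottom of the range. Its 1 transcript had 0.424, 0.576 and 0.324 FPKM in PTH libraries 1 to 3, against 0.640, 0.582 and 0.307 FPKM in vehicle libraries 1 to 3. The values overlapped throughout, and the gene was under the minimum of 1 FPKM and not tested. The difference of mean log2(FPKM + 0.5) was -0.09 (exact permutation p = 0.7). With no minimum, limma gave an adjusted p of 0.664 for the gene.

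Fgf2, a heparin-binding fibroblast growth factor, had 2.65, 2.49 and 5.84 FPKM in PTH libraries 1 to 3, against 2.60, 1.32 and 2.51 FPKM in vehicle libraries 1 to 3. PTH library 3 stood apart, and the other PTH values were close to those of vehicle libraries 1 and 3. The means were 3.66 ± 1.89 FPKM with PTH and 2.14 ± 0.71 FPKM with vehicle (SD, n = 3 each). The log2 difference of 0.61 (SE 0.34) did not pass (limma adjusted p = 0.177), and it was 0.26 without PTH library 3 and 0.36 without vehicle library 2. With the library number as a block it passed (SE 0.19, limma adjusted p = 0.0355).

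Within the gene, the more abundant of the listed coding transcripts was higher in every PTH library than in any vehicle library. The longest coding model of GENCODE M21, with 5973 bases and 154 residues, was not among the listed transcripts. ENSMUST00000038885, whose annotated model is the coding sequence of 153 residues, had 1.28, 1.61 and 1.74 FPKM in PTH libraries, against 0.664, 0.359 and 0.801 FPKM in vehicle libraries. The groups did not overlap, and the log2 difference was 0.90 (SE 0.20, limma adjusted p = 0.0192, and 0.0242 with no minimum). Its vehicle mean was 0.608 FPKM, so it reached the minimum for testing through the PTH libraries alone. Its call was lost without PTH library 2 (limma adjusted p = 0.0629) and without PTH library 3 (0.0668). ENSMUST00000138563, another coding form, of 154 residues, had 0.226, 0.329 and 0.401 FPKM in PTH libraries, against 0.0868, 0.171 and 0.0542 FPKM in vehicle libraries. It was higher in all 3 PTH libraries but too low to be tested. The non-coding ENSMUST00000150021 had 0.267, 0.418 and 1.98 FPKM in PTH libraries, against 0.647, 0.485 and 1.47 FPKM in vehicle libraries, and was highest in library 3 of both groups. The transcript ENSMUST00000138710, which is absent from GENCODE M21, had 0.878, 0.134 and 1.72 FPKM in PTH libraries, against 1.20, 0.304 and 0.191 FPKM in vehicle libraries. The high Fgf2 sum in PTH library 3 thus held 1.98 and 1.72 FPKM of these last 2 transcripts beside 1.74 FPKM of the coding transcript. Summed over its coding transcripts alone, Fgf2 stood at 1.86 ± 0.32 FPKM with PTH and 0.712 ± 0.17 FPKM with vehicle, without overlap (exact permutation p = 0.1, the smallest possible).

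**Figure D4:**
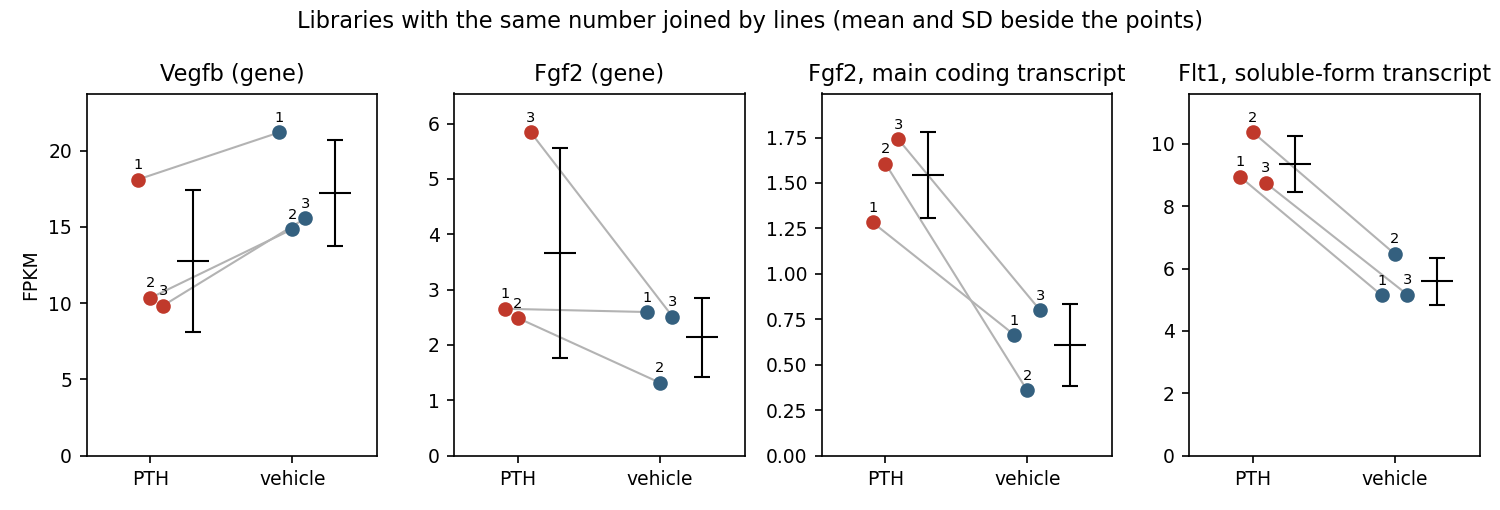
FPKM of the Vegfb and Fgf2 genes, of the main coding Fgf2 transcript and of the transcript of soluble Flt1 in each library, on axes that start at 0, with lines joining PTH and vehicle libraries of the same number. All 3 lines climb toward vehicle for Vegfb, and all 3 drop toward vehicle for the coding Fgf2 and the soluble Flt1 transcript, while the Fgf2 line of library 1 is nearly level.

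Receptors for these factors were measured in the same cells. Of 5 VEGF receptors and coreceptors, 3 were tested and 2 rose, with a median log2 change of 0.29 against -0.15 over all genes. The same test called 10.8% of all genes higher and 41.0% lower. Kdr and Flt4 were not analysed here. Nrp1, the coreceptor that binds the exon 7 stretch of VEGF164, had 14.2, 13.3 and 15.4 FPKM in PTH libraries 1 to 3, against 6.47, 5.37 and 6.10 FPKM in vehicle libraries 1 to 3. Its log2 change was 1.19 (SE 0.08, limma adjusted p = 9.4e-05), and the groups were clearly apart. Nrp2, a coreceptor shared with VEGF-C, had 126.4 ± 10.7 FPKM with PTH and 112.1 ± 13.7 FPKM with vehicle (SD, n = 3 each). The difference on the log2 scale, 0.18 (SE 0.10), missed the threshold (limma adjusted p = 0.197) and passed with the library number as a block (limma adjusted p = 0.00882).

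Flt1, the receptor of VEGF-A and VEGF-B, had 22.1, 24.7 and 19.5 FPKM in PTH libraries 1 to 3, against 17.7, 19.7 and 16.4 FPKM in vehicle libraries 1 to 3. The ranges met, with PTH library 3 below vehicle library 2, and the log2 change of 0.29 (SE 0.10) passed narrowly (limma adjusted p = 0.0495). The call was lost without PTH library 1 (limma adjusted p = 0.105) or 2 (0.133) and without vehicle library 1 (0.106) or 3 (0.149). The short transcript ENSMUST00000110529 encodes 688 residues and ends before the membrane span, the soluble form known to trap VEGF-A, and it rose. It had 8.94, 10.4 and 8.75 FPKM in PTH libraries, against 5.14, 6.47 and 5.16 FPKM in vehicle libraries. These did not overlap, and the log2 change was 0.70 (SE 0.11, limma adjusted p = 0.00565). ENSMUST00000031653, which encodes the membrane receptor of 1333 residues, had 13.2, 14.4 and 10.7 FPKM in PTH libraries, against 12.6, 13.2 and 11.3 FPKM in vehicle libraries, a log2 difference of 0.04 (SE 0.12, limma adjusted p = 0.841). The test that the 2 transcripts changed unequally gave an adjusted p of 0.0529 with diffSplice and missed the threshold. The soluble-form transcript took 42.4 ± 2.34% of Flt1 FPKM with PTH and 31.1 ± 1.97% with vehicle (SD, n = 3 each, exact permutation p = 0.1). The ratio of Vegfa to Flt1 within a library was 12.3, 11.2 and 11.4 in PTH libraries, against 1.26, 1.02 and 1.21 in vehicle libraries.

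Of the 22 FGF ligands listed, 3 were tested and 2 rose, with a median log2 change of 2.15, where 10.8% of all genes tested were called higher. With no minimum 5 were tested and 2 rose, at a median of 0.61, where 1393 of 13658 genes were called higher. Fgf7, the keratinocyte growth factor, had 328.0 ± 37.5 FPKM with PTH and 73.8 ± 12.4 FPKM with vehicle (SD, n = 3 each). On the log2 scale this was 2.15 (SE 0.13, limma adjusted p = 5.9e-05). Fgf21, a metabolic hormone of the family, had 5.95 ± 1.91 FPKM with PTH and 0.090 ± 0.034 FPKM with vehicle, or 3.41 on the log2 scale (SE 0.20, limma adjusted p = 4.7e-05), which the added constant understates. Fgf21 also passed the minimum through the PTH libraries alone, so the count and median of the 3 tested ligands rest in part on it. Both stood further from vehicle than Fgf2 did. With the block Fgf2 was called as well. Of 4 tested FGF receptors and binding proteins, Fgfr1 rose, with 202.3 ± 19.2 FPKM with PTH and 130.1 ± 23.7 FPKM with vehicle (log2 0.65, SE 0.13, limma adjusted p = 0.00693). Fgfr2 (log2 difference 0.10, SE 0.11) and Fgfr3 (-0.44, SE 0.22) did not pass, with limma adjusted p = 0.485 and 0.135. With the library number as a block both passed, with limma adjusted p = 0.0310 for Fgfr2 and 0.00035 for Fgfr3. The median of these 4 was 0.06.

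Among heparan sulfate proteoglycans, which hold FGF2 and the longer VEGF-A forms at the cell surface, 2 of 9 rose and 0 fell, with a median log2 change of 0.02. The same test called 10.8% of all genes higher and 41.0% lower. Sdc4, a syndecan, had 190.0, 248.6 and 263.7 FPKM in PTH libraries 1 to 3, against 35.7, 52.8 and 41.9 FPKM in vehicle libraries 1 to 3 (log2 2.42, SE 0.17, limma adjusted p = 0.00010). Sdc1, another syndecan, changed by 0.27 (SE 0.05, limma adjusted p = 0.00324). The other 7 lay between -0.14 and 0.05 and did not pass in that test. With the library number as a block 2 were higher and 1, Sdc2, was lower, with median centring 3 were higher and 0 lower, and with both 5 were higher and 0 lower. The block called 13.8% of all genes higher and 50.0% lower. Median centring called 18.3% of all genes higher and 24.0% lower, and centring with the block called 24.9% higher and 30.9% lower.

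The HIF pathway, which drives Vegfa under low oxygen, was listed with 6 tested regulators, of which 1 rose and 2 fell, at a median of -0.04. Among all genes tested, 10.8% were called higher and 41.0% lower. The regulators numbered 1 higher and 0 lower with median centring, 1 and 2 with the block, 2 and 1 with both, and 3 and 0 with cyclic loess. The shares of all genes called under these settings follow with the hypoxia target genes. With no minimum 2 regulators were higher and 2 lower, where 1393 of 13658 genes were called higher and 5200 lower. Arnt, the partner subunit of HIF1A, rose by 0.47 (SE 0.05, limma adjusted p = 0.00039), while Hif1a differed by -0.09 (SE 0.12, limma adjusted p = 0.587) and changed sign to 0.04 on median centring. Egln2, an oxygen-sensing prolyl hydroxylase, fell by 0.28 and Vhl, the ubiquitin ligase subunit that marks HIF for decay, fell by 0.17 (limma adjusted p = 0.0139 and 0.0382). Both calls were lost on median centring, where the differences were -0.16 and -0.05, and that of Vhl was also lost without PTH library 1, 2 or 3 or vehicle library 2 or 3 (limma adjusted p = 0.0594 to 0.110). Of 15 tested hypoxia target genes other than Vegfa, 6 rose and 1 fell, at a median of 0.08. The count was 8 higher and 1 lower with median centring, 7 higher and 1 lower with the block, and 10 higher and 1 lower with both. Over all genes these settings called 18.3%, 13.8% and 24.9% higher and 24.0%, 50.0% and 30.9% lower, in that order. With cyclic loess the count was 9 higher and 0 lower, where 20.2% of all genes were called higher and 17.6% lower. Hk2, hexokinase 2, had 38.5 ± 3.26 FPKM with PTH and 5.73 ± 1.00 FPKM with vehicle (log2 2.65, SE 0.12). Mxi1, a MYC antagonist, changed by 2.50, Ndrg1, a stress-responsive gene, by 2.19 and Pfkfb4, a regulator of glycolysis, by 2.16. The other 3 called genes, named to account for all 7, were Slc2a1, a glucose transporter (0.92, limma adjusted p = 5.6e-05), Ldha, lactate dehydrogenase A (0.22, limma adjusted p = 0.0123), and Pdk1, pyruvate dehydrogenase kinase 1, which fell by 0.33 (limma adjusted p = 0.00496). The remaining 8, among them the glycolytic Pgk1, Aldoa and Eno1, differed by between -0.03 (Pgk1) and 0.34 (Pfkfb3) and did not pass.

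Other angiogenic factors were mixed, with 3 of 9 tested genes higher and 2 lower, at a median log2 change of 0.46. The shares over all genes were 10.8% higher and 41.0% lower. With median centring 6 were higher and 0 lower, and with the library number as a block 5 were higher and 3 lower. Centring called 18.3% of all genes higher and 24.0% lower, and the block 13.8% higher and 50.0% lower. Efnb2, the arterial ephrin ligand, had 11.2 ± 1.78 FPKM with PTH and 1.35 ± 0.09 FPKM with vehicle (log2 2.65, SE 0.11, limma adjusted p = 1.3e-05). Adamts1, a metalloprotease known to bind human VEGF165, had 94.2 ± 18.6 FPKM with PTH and 19.3 ± 1.64 FPKM with vehicle (log2 2.24, SE 0.15). Pdgfa, a mitogen of mesenchymal cells, fell by 0.99 (SE 0.29, limma adjusted p = 0.0276) and Cyr61, a matrix-associated CCN protein, fell by 0.72 (SE 0.22, limma adjusted p = 0.0310). Both calls were lost on median centring (limma adjusted p = 0.0530 and 0.0675). That of Pdgfa was also lost without PTH library 1 or 3 or vehicle library 2 or 3 (limma adjusted p = 0.0660 to 0.0867), and that of Cyr61 without PTH library 1, 2 or 3 or vehicle library 2 or 3 (0.0545 to 0.101).

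Of 7 tested angiogenesis inhibitors, 0 were called by limma and 0 had an unadjusted p under 0.05, at a median of 0.11. In this test 10.8% of all genes were called higher and 41.0% lower. The count was 1 higher with median centring, 3 higher with the library number as a block and 6 higher with both, and 0 were lower in each. Over all genes these settings called 18.3%, 13.8% and 24.9% higher and 24.0%, 50.0% and 30.9% lower, in that order. With no minimum 9 were tested, of which 1 was higher and 0 lower, where 1393 of 13658 genes were called higher and 5200 lower. Adamts1 and the soluble-form transcript of Flt1, both higher as given above, were not on this list. Serpinf1, which encodes PEDF, had 693.1 ± 76.3 FPKM with PTH and 691.8 ± 55.3 FPKM with vehicle (SD, n = 3 each, limma adjusted p = 0.999). With the block and median centring its log2 difference was 0.12 and passed (limma adjusted p = 0.0197). Thbs1, thrombospondin 1, had 326.5 ± 39.5 FPKM with PTH and 286.2 ± 56.2 FPKM with vehicle (limma adjusted p = 0.325, and 0.0150 with the block). Proteins that bind AU-rich elements, which the 3′ end of Vegfa RNA is known to carry, numbered 7, of which 2 rose and 1 fell, at a median of -0.03, and 3 were higher and 2 lower with the block. Zfp36, the decay factor tristetraprolin, had 101.5 ± 14.1 FPKM with PTH and 12.6 ± 3.51 FPKM with vehicle (log2 2.98, SE 0.20, limma adjusted p = 9.0e-05). Its relative Zfp36l1 changed by 0.85 (SE 0.11), and Khsrp, another decay factor, fell by 0.44 (SE 0.05).

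**Figure D5:**
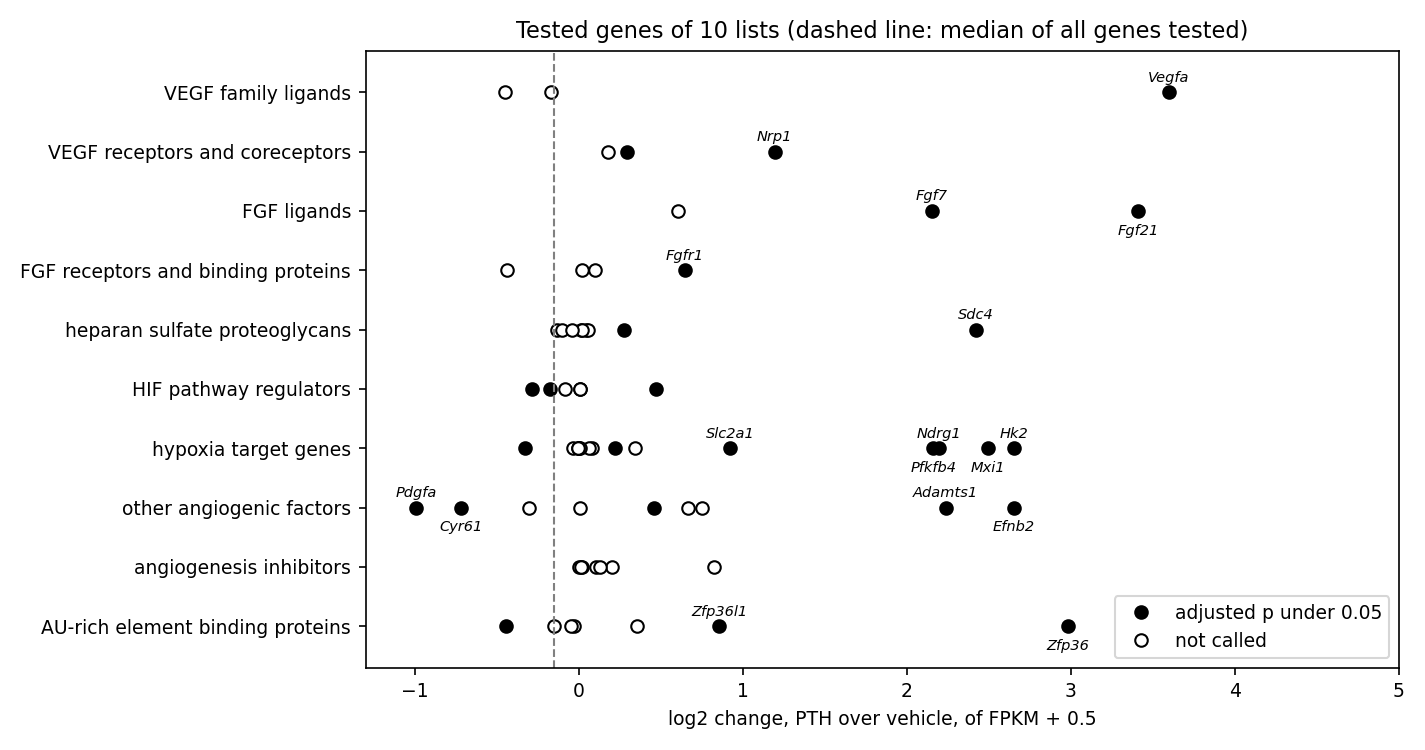
Log2 change of FPKM + 0.5, PTH over vehicle, for each tested gene of 10 lists, filled where the limma adjusted p was under 0.05, with the median of all tested genes (-0.15) dashed. Vegfa at 3.60 and Fgf21 at 3.41 lie farthest right, and the angiogenesis inhibitors hold open points alone.

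The tested genes whose 6 library values followed Vegfa most closely, each taken relative to its own vehicle mean, were Areg, Arrdc3 and Sik1. Their root mean square differences from Vegfa were 0.07, 0.13 and 0.16 on the log2(FPKM + 0.5) scale. Areg, an EGF receptor ligand, had 5.54 ± 0.72 FPKM with PTH and 0.025 ± 0.030 FPKM with vehicle, so its size depends on the added constant and it passed the minimum through the PTH libraries alone. Arrdc3, an arrestin-domain protein, had 30.4 ± 0.61 FPKM with PTH and 1.95 ± 0.28 FPKM with vehicle. Sik1, a salt-inducible kinase, had 42.0 ± 2.73 FPKM with PTH and 2.78 ± 0.33 FPKM with vehicle. For Fgf2 the nearest were AL591207.1, Slc5a3, a myo-inositol transporter, and Spag4, at 0.26, 0.31 and 0.31, so none was near. The calls of AL591207.1 and Slc5a3 in the gene test were lost when single libraries were left out (limma adjusted p up to 0.0843 and 0.0575). For Vegfc the nearest were Capn6, Hif1a and Wsb1, at 0.07, 0.08 and 0.09, and none of the 3 passed in the main test, while Capn6 and Wsb1 passed with the library number as a block (limma adjusted p = 0.00909 and 0.0452).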

How the data were processed

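RNA was measured in 6 libraries, 3 with PTH and 3 with vehicle, grouped by their titles. Per the labels' protocols, libraries came from a stranded kit for mRNA, reads were paired ends of 100 bases, and the authors estimated transcript abundance as FPKM with Cufflinks. The submitters' processing notes name Cufflinks and mm10. The aligner, tool versions and annotation were not given in the sources used here. Cufflinks divides reads between overlapping transcripts by a model, so transcript levels are estimates. Low FPKM values in the deposited table did not step by whole reads, which leaves the depth unknown. The deposited table also holds the authors' log2 fold change, p-value and q-value for groups named q1 and q2, per the file headers.

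Transcript FPKM was summed by symbol. The test was limma 3.58.1 (R 4.3.3, eBayes with trend) on log2(FPKM + 0.5) for genes or transcripts with a mean FPKM of at least 1, two-sided, with Benjamini-Hochberg adjustment over 11628 genes or 21983 transcripts and a threshold of 0.05. limma's diffSplice tested unequal transcript change. Shares and ratios were compared with exact permutation tests. The scripts were tested on simulated data, where diffSplice made more false calls than its threshold allows, so its calls are weak. The cause of those calls was not tested. Python 3.11.15, pandas 2.3.3 and matplotlib 3.10.9 were used. Joins and coordinates come from GENCODE M21, promoters from RefSeq (GRCm38.p6).

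Libraries with the same number deviated together from their group means, with correlations across genes of 0.42, 0.28 and 0.28 for numbers 1, 2 and 3, and were taken as paired for the fits with a block. The labels do not say what the number marks.

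The 4 genes, the lists and the tests were chosen with earlier results of these data known. Named genes are the members, their receptors, up to 4 called genes of each list with the largest change (where none, up to 2 with the highest level), and the 3 genes nearest in profile to Vegfa, Vegfc and Fgf2. Marker lists are given as counts, with Spp1 and the called osteoblast lineage markers named beside them. Alternatives were other pseudocounts (0.1 and 1), minima (none and 5), scalings (median centring, TPM, quantile, cyclic loess), the library number as a block, the highest transcript alone, ratios to the other transcripts, and each library or both libraries numbered 1 left out.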

Additional observations from a re-analysis of the deposited data

How the results depend on the processing

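Vegfa was higher and past the threshold under all 18 alternatives (log2 3.54 to 4.30), as were Vegfa-201 and Vegfa-202 under all 17 run on transcripts. Gene calls numbered 6017, against 2018 with TPM, and 5007 to 5633 with 1 library left out. Transcript calls numbered 6670, against 4003 with a minimum of 5 FPKM, 2099 with TPM, 4130 without both libraries numbered 1, and 4576 to 5467 with 1 library left out. Symbols with unequal transcript change numbered 482, against 758 with no minimum, 141 with a minimum of 5 FPKM, 146 with TPM, 252 without both libraries numbered 1, and 288 to 345 with 1 library left out. The adjusted p of Vegfa in that test was 0.600 with a pseudocount of 0.1, 0.0502 with median centring, 0.248 with TPM, 0.0653 with quantile normalisation, 0.0767 with cyclic loess, 0.169 without both libraries numbered 1, and 0.0106 to 0.271 with 1 library left out. The log2 difference of Vegfb passed at -0.45 with the replicate block, -0.33 with the block and median centring, and -0.57 without both libraries numbered 1, and was -0.72 to -0.30 with 1 library left out. That of Fgf2 passed at 0.72 with TPM, 0.61 with the replicate block, 0.73 with the block and median centring, and 0.90 with the highest transcript alone, and was 0.26 to 0.80 with 1 library left out. Fgf2 was not tested at a minimum of 5 FPKM. The block changed no other call of a member gene or member transcript.

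Some differences that did not pass turned sign. Hif1a was 0.0381 with median centring with or without the block, 0.0062 with TPM and 0.0121 without both libraries numbered 1, and ranged between -0.204 and 0.033 with 1 library left out. Serpinf1 was -0.0325 with cyclic loess and -0.024 without both libraries numbered 1, and ranged between -0.0889 and 0.065 with 1 library left out. Fgfr2 was -0.00054 with quantile normalisation and -0.0316 with the highest transcript alone. Wsb1 was 0.00057 with median centring with or without the block. The transcript of membrane Flt1 ranged between -0.0497 and 0.154 with 1 library left out. The cause of these changes was not tested. Of 626 alternative values for the 35 named genes that are not members, 553 kept direction and side of the threshold. Depth is unknown, so limits for low transcripts cannot be stated. TPM divides by totals that differ widely between libraries.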

Other observations

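The authors' deposited table called 4 of the 10 Vegfa transcripts significant and none of the transcripts of Vegfb, Vegfc or Fgf2. The share of all transcripts called in that table was not taken here, so these counts carry no weight. The groups of that table carry only the names q1 and q2. For Vegfa-202 the authors' deposited table gives a log2 ratio of q2 over q1 of 4.55 with a q-value of 0.00111, and for Vegfa-201 a ratio of 2.84 with a q-value of 0.0275.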
